A study of Mus musculus with 38 samples.

Results

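Left ventricles from empagliflozin-treated mice of a model of HFpEF (heart failure in which the ejection fraction is preserved) were compared with left ventricles of non-failing controls, to ask which transcripts stayed changed and which stood at the healthy level under the drug. The members were chosen by sample title: 11 libraries of the group HFpEF+SGLT2i and 8 of the group non_failing, 19 of the 38 libraries of the series. All mice were wild-type animals of the C57BL6 background, and the labels give their sex as female. The HFpEF model combines a high-fat diet with L-NAME, an inhibitor of nitric oxide synthases, and is known for obesity, raised blood pressure and a stiff ventricle. Treatment began after the disease was present: daily oral empagliflozin, an HDAC6 inhibitor or vehicle alone, allotted at random. The non_failing mice ate standard chow and received vehicle, so the diet, L-NAME and empagliflozin all differ in this comparison and cannot be told apart within it. The 8 libraries of HFpEF mice on vehicle (HFpEF+Veh) are used only to show whether a change was already present without the drug. Each library is 1 mouse by its number in the sample titles.

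Empagliflozin blocks SGLT2, the sodium-glucose cotransporter encoded by Slc5a2 that returns filtered glucose from the proximal tubule of the kidney to the blood. Patients who take it lose glucose in urine, and their metabolism moves from glucose towards fatty acids and ketone bodies. The adult heart already takes most of its energy from fatty acids, and the nuclear receptor PPARα, encoded by Ppara, switches on the genes for their uptake, activation and oxidation when fatty acids are plentiful. HFpEF hearts are known for stiff myocardium, more extracellular matrix and altered fuel use.

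The 8 non_failing libraries held from 27.2 to 48.3 M gene counts (M, 1e+06) and the 11 HFpEF+SGLT2i libraries from 22.1 to 59.3 M (means 32.4 ± 6.78 and 35.0 ± 12.7 M, SD, two-sided exact permutation test p = 0.603). Mitochondrially encoded genes took 32.6 ± 2.30% and 33.1 ± 3.69% of the counts (SD, exact permutation p = 0.740). Heart muscle genes were abundant in each of the 19 libraries: Myh6, the main myosin heavy chain of the mouse ventricle, lay between 4108 and 6787 counts per 1e+06 counts (CPM), whereas the atrial light chain gene Myl7 stayed at or under 2.01 CPM. The Y-linked gene Ddx3y was read in all 19 libraries, at 17.8 to 36.5 CPM, which goes against the label female, and both groups share this. The adipocyte gene Adipoq did not pass 0.394 CPM.

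RNA of hepatocytes was unevenly spread, and its genes were set aside from all counts below. Albumin (Alb) lay between 14.1 and 237 CPM in the 8 non_failing libraries and between 0 and 6.59 CPM in the 11 HFpEF+SGLT2i libraries, with no overlap. The liver gene Apoa1, an apolipoprotein of plasma lipoproteins, lay between 3.11 and 54.3 CPM against 0 to 0.667 CPM. The 21 major urinary protein (Mup) genes summed to 6.95 to 187.5 CPM against 0 to 2.02 CPM. Of the 72 hepatocyte genes that were tested, 52 were called lower with empagliflozin and 0 higher. Without the controls V2504 and V2503, 34 were called, and 9 in limma. The non_failing libraries V2504 and V2503 carried the most, with 1497 and 1000.0 CPM summed over the list. A shorter list of further liver genes, added after values were seen, had 11 of 16 lower and 1 higher (Agt, the angiotensinogen gene). Of that list 4 were called without V2504 and V2503, and 4 in limma. Of 7 mesothelial genes (cells of the heart's outer lining), 5 were lower too (3 without V2504 and V2503, 2 without the control V2502 and 2 in limma), with Upk3b from 0.0981 to 9.49 TPM (median 1.1) against 0 to 0.723 TPM (median 0.0652). Whether these cells' RNA plays a part in any other result was not tested, beyond the values without those libraries that are given below.

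Outside the hepatocyte list, 836 of 13693 tested genes (6.11%) differed between HFpEF+SGLT2i and non_failing hearts at an adjusted p under 0.05 in edgeR's quasi-likelihood test. Of these, 476 (3.48% of all tested) were higher and 360 (2.63%) were lower under empagliflozin. Most differences were small: the median absolute log2 fold change of the called genes was 0.47, and 136 passed 2-fold, 71 upward and 65 downward. A further 6430 genes (47% of all tested) were at the healthy level, defined here as not called and with a 95% interval of the fold change wholly within 1.3-fold of non_failing either way. The remaining 6427 genes were neither called nor tight enough to be placed. Their median standard error was 0.20 on the log2 scale, against 0.09 for the genes at the healthy level, and their median abundance was 3.50 against 19 CPM.

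**Figure D1:**
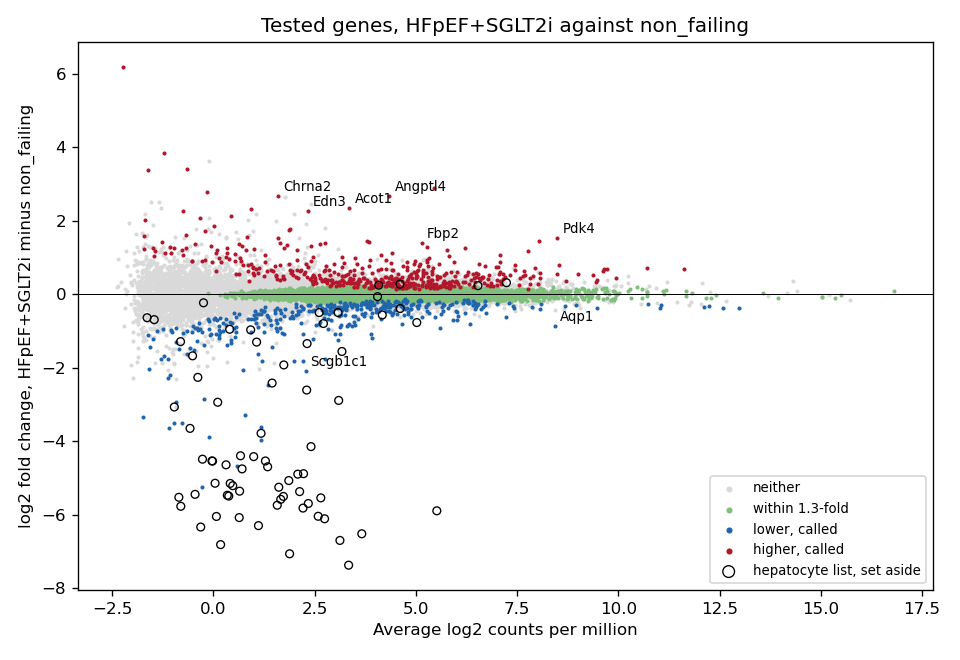
Each point is 1 tested gene, with its average abundance (log2 CPM, x axis) and its log2 fold change, HFpEF+SGLT2i minus non_failing (y axis). The 476 genes called higher are red, the 360 called lower are blue, the 6430 within 1.3-fold are green, and the 72 hepatocyte genes, 52 of them called lower, are open circles.

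Under 2 alternatives the count of changed genes moved by over 1.5 times. Without V2504 and V2503, the pair of non_failing libraries with the most liver RNA, 527 genes were called (289 higher, 238 lower), of which 506 were among the 836. With limma on log2(TPM + 1), 518 were called (304 higher, 214 lower), of which 468 were among the 836. The share of higher genes stayed between 54.8% and 58.7% in these fits, against 56.9%.

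The 12 genes that rose with the smallest p-values included several of lipid metabolism, and Fbp2 led them. Fbp2, the muscle form of fructose-1,6-bisphosphatase (chromosome 13, 62836877 to 62858422, minus strand, GRCm38), lay from 6.19 to 12.9 TPM (median 10.5) in non_failing hearts and from 19.9 to 37.3 TPM (median 26.1) with empagliflozin. All 11 treated libraries stood above all 8 controls, and the log2 fold change was 1.40 ± 0.11 (SE, adjusted p = 2.49e-11). Ranges that do not overlap in TPM were uncommon: 63 of the 13693 genes (0.46%) had them, of which 36 were called higher and 26 lower.

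The other genes with the smallest p-values among those that rose were likewise apart from the controls in all libraries. Chrna2, a nicotinic acetylcholine receptor subunit, was at 1.15 against 0.184 TPM in the median heart and rose by 2.67 ± 0.22 on the log2 scale. Cidea, a protein of the lipid droplet surface, rose by 0.90 ± 0.08, with levels from 13.2 to 18.7 TPM (median 14.7) in controls and from 24.7 to 32.6 TPM (median 27.4) in treated hearts. Dbi, the acyl-CoA binding protein, was among the most abundant of these genes, from 143 to 188 TPM (median 174) in controls and from 235 to 329.6 TPM (median 295) under the drug (log2 0.74 ± 0.08, adjusted p = 1.42e-08). The thioesterase Acot2 rose by 1.25 ± 0.13 and the peroxisome division factor Pex11a by 0.94 ± 0.10. Edn3, which encodes the peptide endothelin 3, rose 4.77-fold, from a median of 0.354 to 1.72 TPM. Mthfd2, a mitochondrial enzyme of folate metabolism, rose 3.33-fold from low levels, from 0.507 to 0.851 TPM (median 0.585) in controls to 1.25 to 3.16 TPM (median 2.12). Others of this set of 12 were Tesc, a calcium-binding protein (0.74 ± 0.08), Hsd17b11, a dehydrogenase of lipid droplets (0.87 ± 0.10), and Oplah, the 5-oxoprolinase of the glutathione cycle (0.57 ± 0.07). Each of the 12 was above the non_failing mean in 11 of 11 treated libraries and was also called higher in HFpEF+Veh.

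Among the genes that fell, Scgb1c1 had the smallest p-value. Scgb1c1, a small secreted protein of the secretoglobin family (chromosome 7, 140845547 to 140846769, plus strand), lay from 16.7 to 37 TPM (median 26) in controls and from 5.04 to 8.18 TPM (median 6.64) with empagliflozin. All treated libraries stood far below all controls (log2 -2.09 ± 0.17, adjusted p = 4.37e-11). Tnnt1, the slow skeletal muscle troponin T (chromosome 7, 4504570 to 4516382, minus strand), lay from 7.91 to 11.5 TPM (median 10.2) against 4.54 to 7.14 TPM (median 5.5), again without overlap (log2 -0.90 ± 0.08). Abat, the enzyme that degrades the transmitter GABA, was 3.5-fold lower (log2 -1.81 ± 0.17). Gcat, which breaks down a threonine product to glycine, had a log2 fold change of -0.94 ± 0.10, from a median of 4.32 to 2.33 TPM.

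The rest of the 12 lower genes with the smallest p-values covered signalling, lipid synthesis and RNA binding. Net1, an activator of the GTPase RhoA, had a log2 fold change of -0.85 ± 0.10 and the endocytic adaptor Epn3 one of -1.24 ± 0.16. Scd1, the desaturase that makes monounsaturated fatty acids, lay from 3.86 to 9.29 TPM (median 4.85) against 1.9 to 2.93 TPM (median 2.41) (log2 -1.18 ± 0.17). Rbm3, a cold-inducible RNA-binding protein, lay from 68.8 to 111 TPM (median 91.6) against 48.3 to 69.4 TPM (median 57.2), so that the lowest control lay just below the highest treated heart (log2 -0.69 ± 0.09). Pde1c, a phosphodiesterase that is activated by calmodulin, had a log2 fold change of -1.08 ± 0.16. Prnd, a relative of the prion protein, had -1.83 ± 0.27, the synaptic adhesion gene Lrrc4b -1.77 ± 0.27 and the death receptor Tnfrsf21 -0.80 ± 0.11. Ranges did not overlap for 10 of the 12, the exceptions being Rbm3 and Epn3, and all 12 were below the non_failing mean in 11 of 11 treated libraries. In HFpEF+Veh, Rbm3 did not pass the test (log2 -0.31, adjusted p = 0.0839), and the other 11 were called lower there. All 24 of these higher and lower genes kept their calls in each of the alternatives run, among them the fit without the liver-rich pair of controls.

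**Figure D2:**
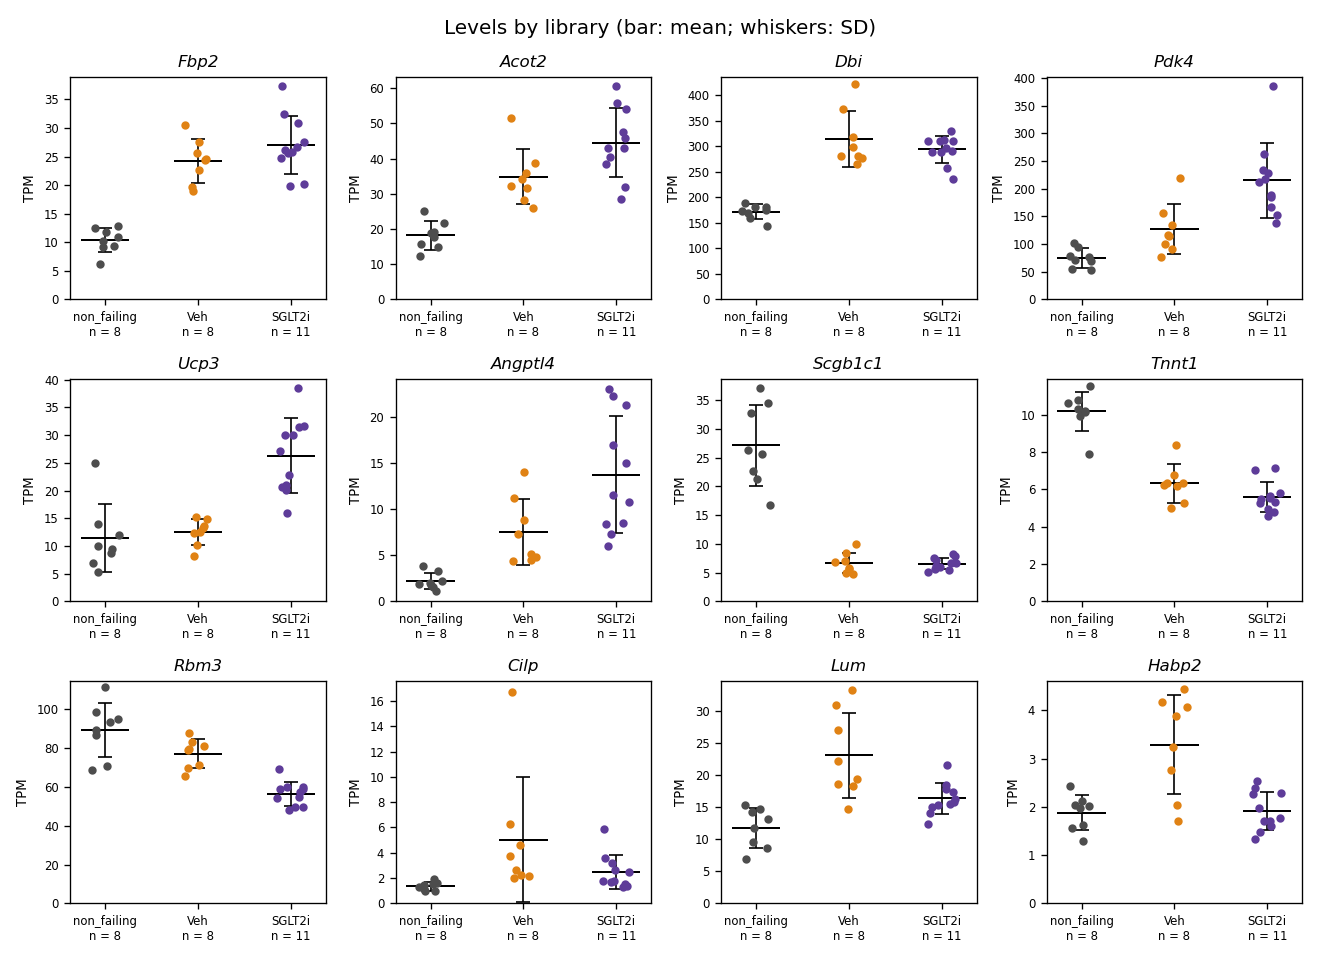
Levels of 12 genes in TPM (transcripts per 1e+06 transcripts, y axis) in each library of the non_failing (n = 8), HFpEF+Veh (n = 8) and HFpEF+SGLT2i (n = 11) groups, with the mean as a bar and the SD as whiskers. Fbp2, Acot2 and Dbi are high and Scgb1c1 and Tnnt1 are low in both HFpEF groups, Ucp3 is high with empagliflozin (median 27.2 TPM, against 9.72 in non_failing and 12.9 in HFpEF+Veh), and Habp2 is close to the non_failing level there.

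Target genes of PPARα formed the group with the most uniform shift. All 18 tested members of the list were called higher with empagliflozin than in non_failing hearts, where 3.48% of all genes were; the median log2 fold change of the list was 0.74, against 0.01 over all genes. With vehicle, 7 of the 18 were called higher than non_failing, with a median of 0.40, beside 3.15% of all genes called in that comparison in either direction. Without the liver-rich pair of controls 17 of the 18 were called, in limma 17, and in the leave-out fits 16 to 18. The summed level of the list lay between 1571 and 2455 CPM in the controls, between 2242 and 3970 CPM in HFpEF+Veh and between 2481 and 4847 CPM in HFpEF+SGLT2i. The list was drawn up with earlier results of these libraries known, so its count describes it and is no independent evidence of its direction.

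Shifts differed in size within the list. Angptl4, a secreted inhibitor of lipoprotein lipase (chromosome 17, 33773750 to 33781830, minus strand), lay from 1.15 to 3.79 TPM (median 1.94) in controls and from 6.02 to 23.1 TPM (median 11.6) with the drug, without overlap (log2 2.69 ± 0.33). The cytosolic thioesterase Acot1 rose 5.06-fold (log2 2.34 ± 0.31, named after its value was seen). Pdk4, the kinase that shuts the pyruvate dehydrogenase complex and so spares glucose (chromosome 6, 5483351 to 5496309, minus strand), lay from 52.7 to 102 TPM (median 73.1) against 138 to 385 TPM (median 213). The 11 treated hearts were all above the controls (log2 1.54 ± 0.19, adjusted p = 5.65e-07). Plin2, a coat protein of lipid droplets, lay from 19.3 to 23.4 TPM (median 21.3) against 28.1 to 41.6 TPM (median 32.4) (log2 0.72 ± 0.09). Ucp3, an uncoupling protein of the mitochondrial inner membrane (chromosome 7, 100472990 to 100486432, plus strand), lay from 5.38 to 24.9 TPM (median 9.72) against 16 to 38.4 TPM (median 27.2), and only the highest control, V2510, reached into the treated range (log2 1.21 ± 0.21, adjusted p = 2.20e-04).

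Promoters of 3 of these genes are shown for what lies just before their starts: Ucp3 and Pdk4, which were higher than in vehicle-treated hearts, and Plin2. RefSeq promoter windows (250 bases before to 50 after the start, GRCm38.p6) were found for 15 of the 18 list genes, Angptl4 not among them. The windows were searched on both strands for AGGTCA, the half-site that nuclear receptors of this class bind, and for a direct repeat of 2 such half-sites 1 base apart, which contains the first motif. The half-site stood in the windows of 6 of the 15 genes (40%) and in 16.3% of 32851 promoters. The direct repeat stood in none of the 15 and in 0.0396% of all. Shares of the list are by gene, with any window of a gene counted (Plin5 had 2), whereas shares of all promoters are by single window. A match describes letters only and says nothing of binding. Capitals mark the half-site on either strand, 5′ to 3′ in the direction of the gene, with Ucp3 at chr7:100472741-100473040 (plus strand), Plin2 at chr4:86670010-86670309 (minus strand) and Pdk4, which held no match, at chr6:5496229-5496528 (minus strand).
Ucp3: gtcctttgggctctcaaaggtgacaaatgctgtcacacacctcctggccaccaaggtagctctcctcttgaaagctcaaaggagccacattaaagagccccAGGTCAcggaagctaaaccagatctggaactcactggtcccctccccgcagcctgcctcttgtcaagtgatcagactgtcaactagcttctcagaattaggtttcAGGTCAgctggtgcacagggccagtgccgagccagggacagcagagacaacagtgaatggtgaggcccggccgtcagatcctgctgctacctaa
Plin2: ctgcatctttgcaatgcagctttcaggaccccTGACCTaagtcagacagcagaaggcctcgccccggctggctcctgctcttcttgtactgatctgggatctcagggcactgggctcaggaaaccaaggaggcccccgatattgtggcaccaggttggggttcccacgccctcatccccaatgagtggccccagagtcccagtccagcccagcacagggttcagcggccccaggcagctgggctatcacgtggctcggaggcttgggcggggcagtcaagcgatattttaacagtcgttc
Pdk4: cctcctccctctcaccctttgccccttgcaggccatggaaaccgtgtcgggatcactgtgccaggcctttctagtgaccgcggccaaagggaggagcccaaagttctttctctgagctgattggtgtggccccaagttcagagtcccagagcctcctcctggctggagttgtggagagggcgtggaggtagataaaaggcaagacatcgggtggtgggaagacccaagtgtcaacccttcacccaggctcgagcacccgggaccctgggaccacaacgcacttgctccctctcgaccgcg

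Of 24 tested genes of uptake and oxidation, 14 were called higher (58.3%, beside 3.48% of all genes tested) and 0 lower. Of the others, 1 was at the healthy level and 9 were unplaced, and the median log2 fold change of the list was 0.58. Without the liver-rich pair 14 were called as well. Transport and activation were represented by Fabp3, the cytosolic fatty acid carrier (0.68 ± 0.11), Cd36, the uptake receptor (0.45 ± 0.10), and the carnitine transferases Cpt1b (0.56 ± 0.08) and Cpt2 (0.66 ± 0.10). The β-oxidation enzymes included Decr1, which handles unsaturated acyl chains, from 77.7 to 115 TPM (median 100.0) against 116 to 216 TPM (median 188) (log2 0.81 ± 0.10). Ech1, an isomerase of the same branch, was at 2042 against 1221 TPM in the median heart (log2 0.71 ± 0.08), and the thiolase Acaa2 at 544 against 347 TPM (log2 0.69 ± 0.09). Etfb, a subunit of the electron acceptor of these dehydrogenases, was the member at the healthy level (0.09 ± 0.09). In HFpEF+Veh, 7 of the 24 were called higher, beside 1.77% of all genes, with a median of 0.33. Between HFpEF+SGLT2i and HFpEF+Veh 0 of the 24 differed, where 0.453% of all genes did.

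**Figure D3:**
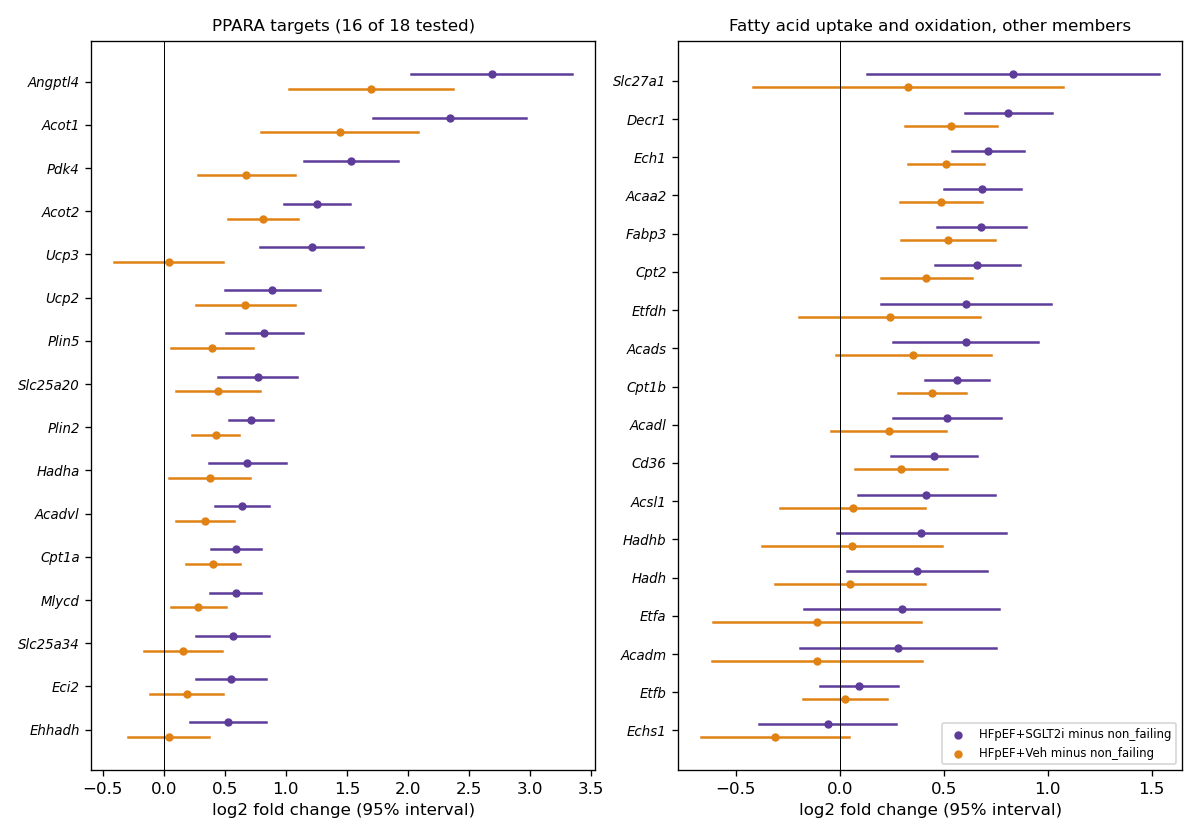
log2 fold changes with 95% intervals (x axis) of 16 of the 18 PPARα targets (left) and of the other members of the fatty acid list (right; Eci1, with a standard error of 0.92, is not drawn), for HFpEF+SGLT2i minus non_failing (purple) and HFpEF+Veh minus non_failing (orange). All 16 purple points on the left lie above 0, with 2.69 for Angptl4 and 0.72 for Plin2; both comparisons use the same 8 non_failing libraries.

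Of 18 genes of lipid droplets and triglyceride turnover, 8 were higher, 0 lower and 5 at the healthy level (5 called without the liver-rich pair). Over all genes tested, 3.48% were higher, 2.63% lower and 47% at that level. Pnpla2, the triglyceride lipase of the cell, was among the 8, from 65.8 to 117 TPM (median 97.2) against 111 to 175 TPM (median 144) (log2 0.58 ± 0.09). Of 35 peroxisomal genes, a list added after values were seen, 13 were higher (37.1%), 0 lower and 15 at the healthy level (42.9%, near the share of all genes). Besides Pex11a the higher ones included the biogenesis factor Pex6 (0.48 ± 0.07). Fatty acid synthesis went both ways: Scd1 was lower, whereas the isoform Scd4 (1.37 ± 0.24), Acacb, whose product malonyl-CoA restrains fatty acid import into mitochondria (0.51 ± 0.09), and the malic enzyme Me1 (0.61 ± 0.17) were higher. The call on Me1 was lost without any 1 of the controls V2507, V2509 and V2510 (adjusted p = 0.0590 without V2507). Of 20 sterol synthesis genes 1 was called (5%, near the 6.11% of all genes tested). It was Srebf2, the transcription factor that drives the pathway, with a log2 fold change of -0.40 ± 0.07. A negative log2 fold change was seen in 16 of the 20, and the median of the list was -0.25, against 0.01 over all genes.

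Of 27 genes of glucose uptake, glycolysis and glycogen, 4 were called higher (Fbp2, Pfkl, Pfkp and Pgam1; 14.8%, beside 3.48% of all genes tested), 0 lower, and 11 were at the healthy level. Pfkl, the liver-type phosphofructokinase, had a log2 fold change of 0.47 ± 0.09. The call on Pfkp was lost without V2507 (adjusted p = 0.0631) or V2502, and that on Pgam1 in 11 of the 19 leave-out fits, each without 1 library. The insulin-responsive glucose transporter Slc2a4 lay from 73.6 to 114 TPM (median 93.1) in controls, from 62 to 89.7 TPM (median 74.1) in HFpEF+Veh and from 51.6 to 98.9 TPM (median 79.1) with the drug. It was called lower with vehicle (-0.38, adjusted p = 0.0486) and not with empagliflozin (-0.25 ± 0.10, adjusted p = 0.155), and the difference between both treatments did not pass either (adjusted p = 0.713, interval -0.08 to 0.34).

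Of 13 tricarboxylic acid cycle genes none was called in edgeR, 8 were at the healthy level (61.5%, beside 47% of all genes tested) and 5 were unplaced, with a median of 0.06. Among 14 genes around pyruvate dehydrogenase, Pdk4 was the 1 called (7.14%, beside 6.11% of all genes tested) and 6 were at the healthy level. Oxct1, the enzyme that starts ketone use, had a log2 fold change of -0.39 ± 0.14 (adjusted p = 0.0980) and was called lower in HFpEF+Veh (-0.54). Branched chain amino acid breakdown had 3 of 19 genes lower (15.8%, beside 2.63% of all genes tested) and 0 higher. The 3 were Bckdhb, a subunit of the rate-limiting dehydrogenase (-0.37 ± 0.10), Acadsb (-0.36 ± 0.10) and Hsd17b10 (-0.29 ± 0.08). None of the 3 was called without the pair of liver-rich non_failing libraries. In HFpEF+Veh, 5 of the 19 were called lower, beside 1.39% of all genes, with a median of -0.43 against -0.17 with empagliflozin. Between HFpEF+SGLT2i and HFpEF+Veh 0 of the 19 were called, where 0.453% of all genes were.

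Most genes of respiration and protein synthesis stood at the healthy level. Of 35 tested complex I genes, 26 were at that level, 1 was lower (2.86%, near the 2.63% of all genes tested) and 0 were higher. The lower one was Ndufa12, from 439 to 557 TPM (median 491) in controls and from 343 to 496 TPM (median 439.9) with empagliflozin (log2 -0.28 ± 0.07). Of 45 genes of complexes II to V, 32 were at the healthy level, 2 were lower (the ATP synthase inhibitor Atpif1, -0.34 ± 0.09, and Cox6a2, -0.26 ± 0.08) and 1 was higher (Cox6b2, 0.96 ± 0.19). The share called, 6.67%, was near the 6.11% over all genes tested. The call on Cox6a2 was lost in 13 of the 19 leave-out fits. Mitochondrial ribosomal proteins had 65 of 74 members at the healthy level, cytosolic ribosomal proteins 66 of 76 and the proteasome 33 of 38, with none called in edgeR in either direction, against 47% of all genes at that level. The class needs a narrow interval, which abundant genes have more often.

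**Figure D4:**
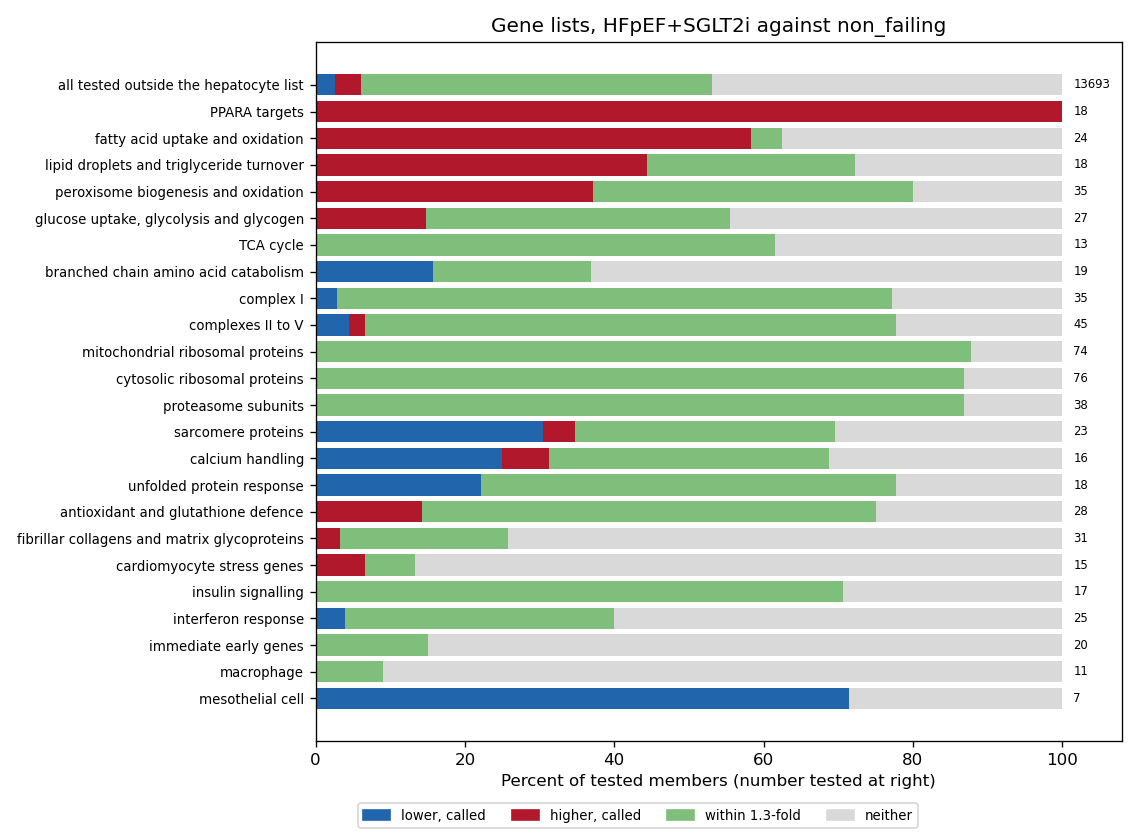
Share of the tested members of each gene list (x axis, percent; number tested at the right) that were called lower (blue) or higher (red), lay within 1.3-fold of non_failing (green) or were neither (grey) in HFpEF+SGLT2i against non_failing hearts. The first bar gives all 13693 tested genes outside the hepatocyte list; PPARα targets are red throughout, and 65 of 74 mitochondrial ribosomal genes are green.

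Of 23 sarcomere genes, which encode the contractile apparatus, 7 were lower, 1 was higher and 8 were at the healthy level, where all genes tested had 2.63% lower, 3.48% higher and 47% at that level (6 called in all without the liver-rich pair). Besides Tnnt1, the 7 were the light chains Myl2 (-0.37 ± 0.08) and Myl3 (-0.34 ± 0.08), the cardiac troponins Tnnt2 (-0.37 ± 0.08), Tnni3 (-0.32 ± 0.08) and Tnnc1 (-0.30 ± 0.08), and the Z-disc cap Tcap (-0.36 ± 0.11). Myl2, the regulatory light chain of the ventricle, lay from 9299 to 13360 TPM (median 11710) in controls, from 8749 to 10080 TPM (median 9479) in HFpEF+Veh and from 6926 to 10160 TPM (median 9431) with the drug, so the ranges overlapped and the shift was 1.29-fold. The higher one was Flnc, a crosslinker at the Z-disc (0.52 ± 0.13). Myh6 was at the healthy level (-0.02 ± 0.14, interval -0.30 to 0.25), as was Mybpc3 (0.01 ± 0.08). The summed level of 8 cardiomyocyte markers lay between 28200 and 40460 CPM in controls and between 21110 and 33310 CPM with empagliflozin. In HFpEF+Veh it lay between 27220 and 32830 CPM. Of the 8, Myl2, Tnnt2 and Tnni3 were called lower, 2 were at the healthy level and 3 were unplaced. A negative log2 fold change was seen in 6 of them and a positive one in 2. Fewer muscle cells and less RNA per cell cannot be told apart in bulk tissue, and neither was tested.

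Calcium and ion handling showed single shifts. Of 16 calcium genes, 4 were lower, 1 was higher and 6 were at the healthy level. Over all genes tested, 2.63% were lower, 3.48% higher and 47% at that level. Without the liver-rich pair 3 of the 16 were called, and in limma 2. Camk2d, the main CaM kinase II of heart, lay from 21.3 to 28.8 TPM (median 27.7) against 14.7 to 24.2 TPM (median 19) (log2 -0.46 ± 0.08). The L-type channel's pore subunit Cacna1c was higher (0.62 ± 0.13) and its partner Cacnb2 lower (-0.62 ± 0.17); the call on Cacna1c was lost with an average length offset and in limma, and that on Cacnb2 in limma and without the liver-rich pair. The calcium pump Atp2a2 (-0.20 ± 0.17, adjusted p = 0.556) and its inhibitor Pln (-0.24 ± 0.16, adjusted p = 0.417) did not pass the test. Of 15 sodium handling genes, the channel genes Scn4a (0.94 ± 0.19) and Scn4b (1.29 ± 0.28) were higher (13.3%, beside 3.48% of all genes tested). Among 13 receptors and enzymes of the adrenergic, angiotensin and endothelin systems, the angiotensin receptor Agtr1a was lower (-0.46 ± 0.12, a call lost without the liver-rich pair) and also called lower in HFpEF+Veh. Aqp1, the water channel of small vessels, lay from 134 to 246 TPM (median 177) in controls and from 68.5 to 158 TPM (median 101) with empagliflozin (log2 -0.87 ± 0.15), while the other endothelial markers were not called.

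Of 18 genes of the unfolded protein response, which refolds proteins in the endoplasmic reticulum, 4 were lower (2 without the liver-rich pair, beside 2.63% of all genes tested), 0 higher and 10 at the healthy level. The growth factor Manf lay from 18.1 to 29.3 TPM (median 23.5) against 12.5 to 21 TPM (median 17.1) (log2 -0.51 ± 0.10), and Sdf2l1 was 1.77-fold lower (-0.83 ± 0.19); the calls on Hspa5 (-0.36 ± 0.11) and Pdia3 (-0.26 ± 0.08) were lost in 14 and 15 of the 19 leave-out fits. Of 20 heat shock genes 3 were lower (15%, beside 2.63% of all genes tested), namely the co-chaperones Dnaja1 (-0.49 ± 0.12) and Dnajb1 (-0.45 ± 0.14) and the inducible chaperone Hspa1a (-0.87 ± 0.27). The count was 1 to 5 in the leave-out fits and 1 in limma; Dnajb1 kept its call in 9 of those 19 fits, Hspa1a in 6 and Dnaja1 in all 19. Of 28 antioxidant genes 4 were higher (14.3%, beside 3.48% of all genes tested), 0 lower and 17 at the healthy level. Sulfiredoxin Srxn1 was at 0.43 ± 0.08, extracellular superoxide dismutase Sod3 at 0.59 ± 0.11 and catalase Cat at 0.56 ± 0.14. Mt1, the other of the 4, kept its call in 6 of the 19 leave-out fits and lost it without the liver-rich pair. Among 19 genes of the integrated stress response, 3 were higher (2 without the liver-rich pair, beside 3.48% of all genes tested): Mthfd2, the transcription factor Atf5 (0.50 ± 0.07) and the serine synthesis enzyme Psat1 (0.39 ± 0.12), the last lost in 13 of those 19 fits. Atf4 itself was at the healthy level (0.01 ± 0.08).

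Of 31 fibrillar collagen and matrix glycoprotein genes, 1 was called higher (Emilin1, 0.45 ± 0.12, a call lost in limma and without the liver-rich pair) and 0 lower, 7 were at the healthy level and 23 were unplaced, with a median log2 fold change of 0.15. That share, 3.23%, was near the 3.48% called higher over all genes. The count of the list was 1 to 3 in the leave-out fits and 0 in limma. In HFpEF+Veh, 8 of the 31 were called higher, beside 1.77% of all genes, with a median of 0.38. Cilp, a matrix protein made by activated fibroblasts, lay from 0.944 to 1.95 TPM (median 1.36) in controls, from 2.01 to 16.7 TPM (median 3.18) in HFpEF+Veh and from 1.26 to 5.85 TPM (median 1.8) with the drug. It was called with vehicle (1.81, adjusted p = 0.00296) and not with empagliflozin (0.86 ± 0.34, adjusted p = 0.136). The collagen-binding proteoglycan Lum followed the same order, from 6.93 to 15.3 TPM (median 12.4), from 14.7 to 33.2 TPM (median 20.8) and from 12.4 to 21.6 TPM (median 15.8), with adjusted p of 0.00190 with vehicle and 0.0650 with the drug. Of the 9 small leucine-rich proteoglycans tested, Lum among them, Bgn was called higher with the drug (0.44 ± 0.12, lost in limma and without the liver-rich pair), Fmod was lower, 1 was at the healthy level and 6 were unplaced. Col1a2 and Fn1, the genes of a type I collagen chain and of fibronectin, were at the healthy level (0.14 ± 0.10 and 0.03 ± 0.14). No gene of the matrix list was called between HFpEF+SGLT2i and HFpEF+Veh in edgeR, where the median of the list was -0.19. Cilp had -0.95 there, with an interval of -1.61 to -0.29 before adjustment and an adjusted p of 0.211.

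Of 15 cardiomyocyte stress genes, 1 was called higher (6.67%, beside 3.48% of all genes tested). It was Acta1, the skeletal actin that the stressed heart re-expresses. Acta1 lay from 32.7 to 85.1 TPM (median 63.9) in controls, from 129 to 222 TPM (median 202) with vehicle and from 64.7 to 364 TPM (median 143) with empagliflozin (log2 1.44 ± 0.27). With vehicle 6 of the 15 were called higher, beside 1.77% of all genes: Gdf15 (1.28), Ankrd23 (0.74), Abra (1.06), Rcan1 (0.54) and Hbegf (0.74) besides Acta1. With the drug their log2 fold changes were 0.78 ± 0.25, 0.37 ± 0.14, 0.56 ± 0.22, 0.31 ± 0.14 and 0.18 ± 0.17, none of them called in edgeR. Between HFpEF+SGLT2i and HFpEF+Veh, 0 of the 15 stress genes were called, with a median of -0.32, so no difference between drug and vehicle passed the test for any of them. The natriuretic peptide gene Nppb lay from 154 to 386 TPM (median 270.0) in controls and from 149 to 416 TPM (median 238) with empagliflozin (-0.12 ± 0.22, adjusted p = 0.825). The interval of Nppb against controls was -0.56 to 0.33, too wide to place it at the healthy level.

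Of the genes that HFpEF moved without the drug, most were still called with it. Outside the hepatocyte list, 432 genes (3.15%) were called in HFpEF+Veh against non_failing, 242 higher and 190 lower. The share of higher genes was 56% there, but 79.3% of 474 when scaled by library size alone and 70.8% of 449 in limma. With empagliflozin 241 of these were called in the same direction (128 higher, 113 lower) and 0 in the opposite one. A further 37 were at the healthy level and 154 were unplaced. Both comparisons use the same 8 non_failing libraries, which by itself makes the calls go together. Without the vehicle library V2523, which carried liver RNA (Alb 1141 CPM), the counts were 573 called with vehicle, 304 of them called with the drug in the same direction and 71 at the healthy level.

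The 37 genes at the healthy level were 26 that vehicle-treated hearts had lower and 11 that they had higher. Habp2, a secreted hyaluronan-binding protease, lay from 1.29 to 2.44 TPM (median 1.99) in controls, from 1.71 to 4.44 TPM (median 3.55) with vehicle and from 1.34 to 2.52 TPM (median 1.76) with the drug. It was 0.68 log2 units above controls with vehicle and 0.01 ± 0.15 with empagliflozin, and it was the 1 gene of the 37 that also differed between treatments (-0.67, adjusted p = 0.0140). Without the vehicle library V2523 that difference was -0.64 with an adjusted p of 0.129. Others that were higher with vehicle were Pmepa1, a target and inhibitor of TGF-β signalling (0.44 with vehicle, 0.17 ± 0.10 with the drug), the ectonucleotidase Entpd2 (0.35 and 0.15 ± 0.09) and the matrix-associated receptor Mxra8 (0.33 and 0.07 ± 0.09). Snf8, a subunit of the ESCRT-II sorting complex (0.28 and 0.17 ± 0.07), and the lipid flippase Atp8b1 (0.47 and 0.07 ± 0.12) completed the named set.

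Those lower with vehicle included Osbpl3, a lipid transfer protein (-0.52 with vehicle and -0.20 ± 0.09 with the drug), Fam126a (-0.38 and -0.16 ± 0.06) and the nucleolar GTPase Gnl2 (-0.29 and -0.14 ± 0.05). Mitochondrial enzymes of amino acid breakdown were Gcdh, of the lysine path (-0.38 and -0.22 ± 0.08), and Aldh5a1, which finishes GABA breakdown (-0.41 and -0.11 ± 0.09); Lsm14b, an RNA-binding protein, had -0.34 and -0.19 ± 0.07. Slc25a4, the ADP/ATP carrier of heart mitochondria, lay from 2185 to 3112 TPM (median 2631) in controls, from 1916 to 2614 TPM (median 2257) with vehicle and from 1796 to 2848 TPM (median 2533) with empagliflozin (-0.33 and -0.11 ± 0.08, named after its value was seen). All 37 had the sign they had with vehicle, although that of Habp2 turned in 7 of the 19 leave-out fits and those of Habp2 and Atp8b1 without the liver-rich pair, and 20 still had an unadjusted p under 0.05 against non_failing, so within 1.3-fold does not mean equal. The class also moves with its margin: 4 of the 432 were within 1.2-fold and 96 within 1.5-fold.

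**Figure D5:**
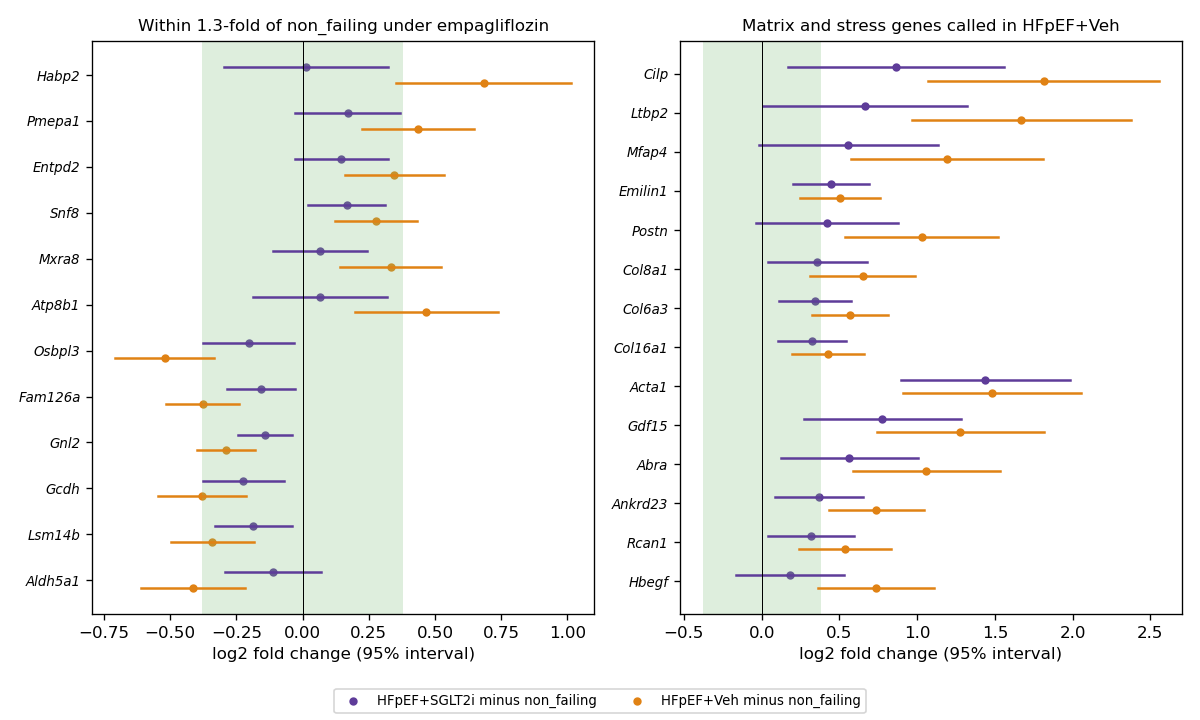
log2 fold changes with 95% intervals (x axis) against non_failing for HFpEF+SGLT2i (purple) and HFpEF+Veh (orange); the green band is 1.3-fold either way. On the left are 12 of the 37 genes called with vehicle and within the band with empagliflozin, and on the right the 8 matrix and 6 stress genes called with vehicle, of which Emilin1 and Acta1 were also called with empagliflozin.

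Genes that differed both from healthy and from vehicle-treated hearts were few. Of the 836 genes, 26 were also called in HFpEF+SGLT2i against HFpEF+Veh, 13 higher and 13 lower, beside 62 genes (0.453%) called in that comparison at all. Of those 62, 29% were higher, against 4.3% of 93 when scaled by library size alone and 44.7% of 76 in DESeq2. Ucp3 had the clearest pattern: 1.17 ± 0.21 above vehicle (adjusted p = 0.00129), while vehicle itself was at 0.04 against non_failing. Its level was from 8.24 to 15.2 TPM (median 12.9) in HFpEF+Veh, so all 11 treated hearts lay above all 8 of that group. Pdk4 was 0.86 ± 0.18 above vehicle (adjusted p = 0.00865), on top of 0.68 with vehicle.

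Smaller rises over both groups were seen for the ubiquitin ligase parts Fbxo31 (0.33 over vehicle) and Cblb (0.29), and Pnpla2 (0.39). Rbm3 (-0.38), Tmem263 (-0.29), Rbm43 (-0.44) and Papss1, which makes the sulphate donor of the cell (-0.54), were lower than in both. Against non_failing, Papss1 lost its call in 15 of the 19 leave-out fits, Rbm43 in 9 and Pzp, the last of the 5 lower genes by rule, in 3, and all 3 lost it without the liver-rich pair and in limma. Pzp, a liver protease inhibitor, had a log2 fold change of -3.66 against vehicle but of -0.49 (adjusted p = 0.690) without V2523, and 7 of the 26 were on the list of further liver genes. Without V2523 the comparison with vehicle called 2 genes, Ucp3 (1.22, adjusted p = 0.0264) and Pdk4 (1.00, adjusted p = 0.0264); Fbxo31 and Rbm3 kept 0.32 and -0.39 with adjusted p of 0.124 and 0.129. In limma on log2(TPM + 1) that comparison called 0 genes at the adjusted threshold and 1340 at an unadjusted p under 0.05, where edgeR had 1320 and DESeq2 called 76. For the 595 genes called against non_failing with empagliflozin and not with vehicle, the difference between treatments was called for 24.

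None of 11 macrophage or 10 lymphocyte markers was called in edgeR, although all 11 macrophage genes had a positive log2 fold change, with a median of 0.18. Of 25 interferon response genes 1 was lower (4%: Bst2, -0.42 ± 0.13), and of 19 antigen presentation genes 1 was lower (5.26%: B2m, -0.42 ± 0.13). These shares were near those over all genes tested, of which 2.63% were lower and 6.11% called in either direction. Either call was lost in 12 of the 19 leave-out fits. Tnf, at 0.317 against 0.667 TPM in the median heart, had a log2 fold change of -1.10 ± 0.33, a call lost in 10 of those fits. None of the 20 immediate early genes passed in edgeR, and 18 of them had a negative log2 fold change; without the treated library V2571, 4 were called. Of 8 fibroblast markers 7 had a positive log2 fold change (median 0.14), and 25% were called, beside 6.11% of all genes tested. Pdgfra was called higher (0.35 ± 0.07), and the transcription factor Tcf21, the 1 with a negative value, was called lower (-0.43 ± 0.13, lost in 5 of those fits). The erythrocyte genes were not called either; the highest Slc4a1 value of a treated library was 32.2 CPM against 1.47 CPM in the controls.

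Regulators of rhythm, signalling and turnover were counted beside the 6.11% called over all genes tested. Of 17 insulin signalling genes 12 were at the healthy level and of 8 thyroid hormone genes 7 were, with none called in edgeR in either list. Of 21 autophagy and lysosome genes, 14 were at the healthy level and 2 (9.52%) were higher, Map1lc3a, which marks autophagosomes (0.36 ± 0.07), and the protease Ctsd (0.33 ± 0.10, a call lost in 14 of the 19 leave-out fits). Of 18 clock genes the output factor Hlf was the 1 called, from 2.23 to 6.13 TPM (median 3.53) in controls and from 1.39 to 3.3 TPM (median 2.61) with empagliflozin (-0.62 ± 0.19, lost in 9 of those fits). Serine, glycine and folate enzymes had 23.5% called, 2 of 17 higher, Mthfd2 and Psat1, and 2 lower, Gcat and Aldh1l1, an enzyme of folate oxidation that is abundant in liver (-1.07 ± 0.29, lost without the liver-rich pair). Fmod, a small proteoglycan of collagen fibres, lay from 0.128 to 3.08 TPM (median 0.760) in controls and from 0.0989 to 0.459 TPM (median 0.187) with the drug (-2.05 ± 0.56), and the call was lost in limma and without the control V2502 (adjusted p = 0.106), which also had the highest mesothelial sum, 87.3 CPM.

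The transporter that empagliflozin blocks was barely read in this tissue. Slc5a2, which encodes SGLT2, had at most 4 counts in any of the 19 libraries, had counts in 5 of them, and was not tested. The related intestinal transporter gene Slc5a1 lay from 0.0415 to 0.268 TPM (median 0.123) in controls and from 0.0329 to 0.111 TPM (median 0.0664) with empagliflozin (-0.77 ± 0.35, adjusted p = 0.205). Hdac6, the target of the study's other compound, lay from 2.73 to 3.96 TPM (median 3.45) against 2.98 to 5.59 TPM (median 4.43) (0.29 ± 0.11, adjusted p = 0.104). Of 17 genes listed as singled out by the study, some of them on these libraries and others on single nuclei or as known markers, 1 was higher (Pdgfra), 1 was lower (Ndufa12), 4 were at the healthy level and 11 were unplaced. Ndufa12 does not appear in the study's main text, which names Ndufa5 among the respiratory chain genes. The ATP synthase subunits Atp5h, Atp5o and Atp5j and the matricellular gene Cyr61 were the 4 at the healthy level, with log2 fold changes of -0.17 ± 0.08, -0.17 ± 0.07, -0.07 ± 0.08 and 0.03 ± 0.14.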

How the data were processed

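Left ventricle RNA of 38 mice was sequenced as stranded poly(A) libraries, 1 library per mouse, and 27 libraries of 3 groups enter the results. The authors trimmed reads, quantified them with Salmon (1.6.0 in the submitters' processing notes) against mouse GENCODE transcripts and summed transcripts to genes. The submitters' notes name hg38, a human build, whereas the gene symbols and the study's methods are of mouse. They deposited estimated counts per gene, which are not whole where reads were shared, TPM (transcripts per 1e+06 transcripts) and, as other values, the mean effective transcript length. Columns matched sample titles, and 0 columns were left unmapped. Near-identical genes, such as the Mup family and Acot1 with Acot2, share reads and are less certain.

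Counts were rounded and fitted with edgeR 4.0.16 (R 4.3.3) in 1 model of 4 groups with TMM scaling, the default filter on low counts and the quasi-likelihood test. P-values were adjusted by Benjamini-Hochberg over 13765 genes; adjusted p below 0.05 made a call. SE is the log2 fold change over the root of F, and intervals are 95%. Alternatives used limma 3.58.1 on log2(TPM + 1), DESeq2 1.42.0, other scalings, no filter, a length offset and leaving out libraries. P-values measure the spread between mice. Within the non_failing and HFpEF+SGLT2i groups, no pair of libraries agreed within counting noise (83 pairs, lowest chi-square per degree of freedom 16.6). The edgeR fit and its calls were tried on simulated counts first.

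Genes were named by rule: among called genes with a mean log2 CPM of at least 1, those with the smallest p, 12 in each direction, up to 6 per direction called with vehicle and within the margin with the drug, up to 5 per direction called against both groups, the 4 members of each list with the smallest p, and the drug targets and genes the study named. Members, lists and rules were chosen with earlier results of these data known; the further liver and peroxisome lists, some alternatives and any gene outside the rule (among them Acot1, Agt, Cd36, Fabp3, Cpt2, Etfb, Flnc, Tnnc1, Tcap, Atp2a2, Pln, Atf4, Rcan1, Hbegf, Fn1 and Slc25a4) were added after values were seen. Some genes that the rule takes are not reported here. Positions are from GENCODE M21 (GRCm38), in which 27812 of 29564 symbols were found, and promoters from RefSeq.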

Additional observations from a re-analysis of the deposited data

Results flagged for a closer look

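Values of 1 library that stood far from the rest of its group were looked for among the non_failing and HFpEF+Veh libraries, 8 each, in 288 tests, by Dixon's ratio of the gap to the range at its 95% critical value. Chance alone picks out about 1 in 20 such groups, and 32 values were found, 13 in non_failing and 19 in HFpEF+Veh. The group of 11 treated libraries was not tested.

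Of these, 13 came from the vehicle library V2523, which carried liver RNA. It was the highest of its group for Alb at 493 TPM, Apoa1 at 84.2 TPM, Hsd17b11 at 22.3 TPM, Pzp at 10.8 TPM, Hbegf at 10.6 TPM, Acot1 at 8.89 TPM, Scd1 at 7.52 TPM, Tnfrsf21 at 5.51 TPM, Agt at 5.18 TPM, Aldh1l1 at 3.76 TPM and Abat at 1.45 TPM. Ndufa12 at 463 TPM and Sdf2l1 at 4.15 TPM were also highest there. The other vehicle libraries gave Cilp at 16.7 TPM and Fmod at 4.42 TPM in V2530, Ech1 at 2470 TPM in V2527, Sod3 at 16.9 TPM in V2521, and in V2532 Ppara at 3.13 TPM and total counts of 57.7 M.

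Among the non_failing libraries, V2507 stood apart in Cpt1b (81.7 TPM), Oplah (8.31 TPM), Tnnt1 (7.91 TPM) and the mitochondrially encoded share (37.8% of counts). Library V2501 stood apart in B2m (373 TPM), Ddx3y (15.4 TPM), Lrrc4b (10.2 TPM) and Osbpl3 (4.44 TPM). The remaining values were Edn3 at 0.684 TPM and total counts of 48.3 M in V2508, Ucp3 at 24.9 TPM in V2510 and Upk3b at 9.49 TPM and Fmod at 3.08 TPM in V2502.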

How the results depend on the processing

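No paired analysis was possible because the groups share no replicate numbers: each title carries a mouse number of its own. The number of genes called between HFpEF+SGLT2i and non_failing hearts (836) was 527 without the 2 non_failing libraries with the most hepatocyte RNA, 518 in limma, and 605 to 1071 under RLE scaling, library size alone, no filter, a length offset, 2 groups only and DESeq2, with 647 to 936 when 1 of the 19 libraries was left out and 893 without the vehicle library V2523. With further liver and mesothelial genes set aside as well it was 819, an alternative chosen after seeing the data, as was the one without the liver-rich pair. The 62 calls against HFpEF+Veh became 358 with no filter, 2 without V2523 and 0 in limma (1340 at an unadjusted p under 0.05). Genes at the non_failing level numbered 6430 at a margin of 1.3-fold, 3278 at 1.2-fold and 9366 at 1.5-fold. The cause of these moves was not tested. Of 259 named genes, 116 were called; 85 of them kept the call in all 19 leave-out fits and 76 in every setting, and none of the 116 reversed. Over 28 settings, 16 of 7233 values reversed, all in uncalled genes near 0. Habp2 ranged from -0.0322 to 0.0628 when 1 library was left out and was -0.0236 without the liver-rich pair, where Atp8b1 was -0.0211 and Cyr61 -0.0599. Cyr61 ranged from -0.0397 to 0.0857 and Atf3 from -0.0457 to 0.390 in the leave-out fits, and Atf3 was -0.0612 in limma. The difference in mitochondrially encoded share, 0.527 percentage points, ranged from -0.111 to 1.27. No scaling moved the median gene by 0.1 or more on the log2 scale. The unplaced genes had a median abundance of 3.50 CPM, against 19 CPM for the genes at the non_failing level.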
